A study of Mus musculus with 24 samples.

Results

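The resting *M. gastrocnemius* of the 12 Norm mice was described from 12 of the 24 arrays of the series, those whose labels name normoxia. The arrays were chosen by that label alone, and no value was used to choose them. Norm mice were male C57BL/6JOlaHsd mice that arrived at 10 weeks of age, ate a low-fat diet (10% of energy as fat) for 3 weeks and then a high-fat diet (40% of energy as fat) for 6 weeks. They were fasted and kept at 20.9% oxygen for 6 h before the muscle was taken, so rest here means fasted, fat-fed and normoxic. The other 12 mice, Hypox, were treated alike except for 12% oxygen and are not compared here. Each array carried the Cy5-labelled RNA of 1 mouse and, in Cy3, one reference pool of all samples, Hypox mice included. A log2 Cy5/Cy3 ratio of 0 is therefore the level of that mixed pool and not of rest.

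The gastrocnemius is a calf muscle made mostly of fast fibers, which burn glycogen and contract quickly, with a smaller share of slow fibers, which burn fat and resist fatigue. Each fiber type builds its filaments from its own isoforms of myosin, troponin and tropomyosin. The RNA of these isoforms in a whole muscle depends on the fibers in the sample and on how much each fiber makes. Whole muscle also holds capillaries, blood, nerve, connective tissue and fat cells between the fibers. In such bulk RNA, fewer cells of a type and less RNA per cell cannot be told apart.

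The arrays lay on 6 slides with 2 Norm arrays each. Mean Cy5 signal above background ran from 29.1 to 902 per array, while the Cy3 pool ran only from 812 to 1367. Slide 1 (Norm replicates 4 and 11) was the dimmest and slide 6 (replicates 6 and 12) the brightest. The scanner software called between 9.42% and 37.3% of spots well above background in Cy5, and 0 spots were saturated. On 5 arrays, patches of spots with a raised local Cy5 background lay together, 1534 spots in all, most of them on replicates 10, 1, 4 and 2. When they were kept, the 50 genes with the largest spread were all lit on a single array, 23 on replicate 10, 21 on replicate 4 and 6 on replicate 1, and on the other arrays all 50 stayed within 1 of the pool on the log2 scale. These spots were left out of all values below. Of the 50 genes, only *Zcchc18* and *AU023762* were still measured after that, and both were still high on replicate 4 alone. Because slide and brightness went together, the spread between mice was taken within slides, as the difference between the 2 Norm mice of each slide.

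Probes of 60 bases report 1 stretch of each transcript. Those on which the account of fiber type and fat rests are printed here 5′ to 3′ as deposited, with capitals marking AATAAA, the usual polyadenylation signal, in the strand that is printed. That motif was held by 1689 of the 8991 probes used (18.8%), and among these by the *Tnnt1* probe alone. Positions are on mouse build mm9.
Myh7 (slow myosin heavy chain, chr14:55589581-55589640, minus strand): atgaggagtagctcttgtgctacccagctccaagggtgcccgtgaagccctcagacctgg
Tnnt1 (slow troponin T, chr7:4456265-4456324, minus strand): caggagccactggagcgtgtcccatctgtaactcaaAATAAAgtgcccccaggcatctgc
Myl2 (slow myosin light chain, chr5:122556732-122556791, plus strand): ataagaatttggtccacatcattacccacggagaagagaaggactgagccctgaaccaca
Actn3 (fast-fiber alpha-actinin, chr19:4861727-4862212, minus strand, a span longer than the probe): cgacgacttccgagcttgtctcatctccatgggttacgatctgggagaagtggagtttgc
Adipoq (adiponectin, a hormone of fat cells, chr16:23157576-23157635, plus strand): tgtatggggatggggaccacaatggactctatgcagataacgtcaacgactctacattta
Cfd (adipsin, secreted by fat cells, chr10:79355302-79355361, plus strand): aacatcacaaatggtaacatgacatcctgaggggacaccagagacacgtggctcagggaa

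Many of the brightest probes of the resting muscle were those of fast-fiber and energy genes. Of 8991 genes measured, the brightest was *Aldoa*, the glycolytic aldolase of muscle, at a mean log2 Cy5 signal of 16.83 against a median of 7.42 over all genes. It was followed by *Tpm1* (tropomyosin, 16.48), the pseudogene *Gm5523* (16.25), the fast troponins *Tnni2* (16.17) and *Tnnc2* (16.01), *Myh8* (15.93), the calcium buffer *Pvalb* (15.67), *Tnnt3* (15.58), *Gapdh* (15.57) and the fastest myosin heavy chain *Myh4* (15.57). *Slc25a4*, the mitochondrial ADP/ATP carrier, *Tcap*, *Zfp628*, *Gm12070*, mitochondrial *CYTB*, *Acta1*, *Myl1*, *Stxbp4*, *Pebp1* and *Chchd10* completed the first 20. A probe's brightness depends on its sequence as well as on its transcript. Where a gene had over 1 probe (1731 genes), the probes lay a median of 0.85 apart on the log2 scale and up to 9.40 apart for *Tpm1*, so these ranks order probes and not amounts of RNA. *Gm5523*, *Gm12070* and *Myh8*, an immature-muscle myosin, belong to families of near-identical sequences, and the signals of their probes are uncertain for that reason. The 2 probes of *Zfp628* lay 8.64 apart and correlated over the mice at -0.25, so its rank holds for 1 probe only.

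By the gene lists, 18 of the 100 brightest genes were filament or fiber type genes. In each mouse's own 100 brightest the number ran from 14 to 21. A further 17 were nuclear subunits of oxidative phosphorylation (OXPHOS), led by the muscle isoform *Cox6a2* at rank 25, and 9 were genes of mitochondrial DNA, from *CYTB* at rank 15 to *ND3* at rank 69. Enzymes of glycolysis and glycogen use added 6, cytosolic ribosomal proteins 5 and gene models or pseudogenes 9. The remaining 36 belonged to none of these classes. *Fabp3*, the fatty acid carrier of muscle, was at rank 88. The lists as wholes were as bright: 72 of 75 nuclear OXPHOS genes, 77 of 78 ribosomal protein genes and 18 of 20 glycolysis genes were among the first 1000.

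Fast fiber genes were brighter than slow fiber genes. Of 15 fast fiber genes measured, 10 were among the 100 brightest, with a median rank of 56, while 0 of 16 slow fiber genes were, with a median rank of 2204. Slow fiber genes reached rank 112 for the light chain *Myl3*, 331 for *Tnnt1*, 484 for *Myl2* and 698 for *Myh7*. The heavy chains of intermediate and fast fibers stood at rank 56 (*Myh2*), 178 (*Myh1*) and 10 (*Myh4*). One fast gene, *Mylpf*, the fast regulatory light chain, stood at rank 2581.

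**Figure D1:**
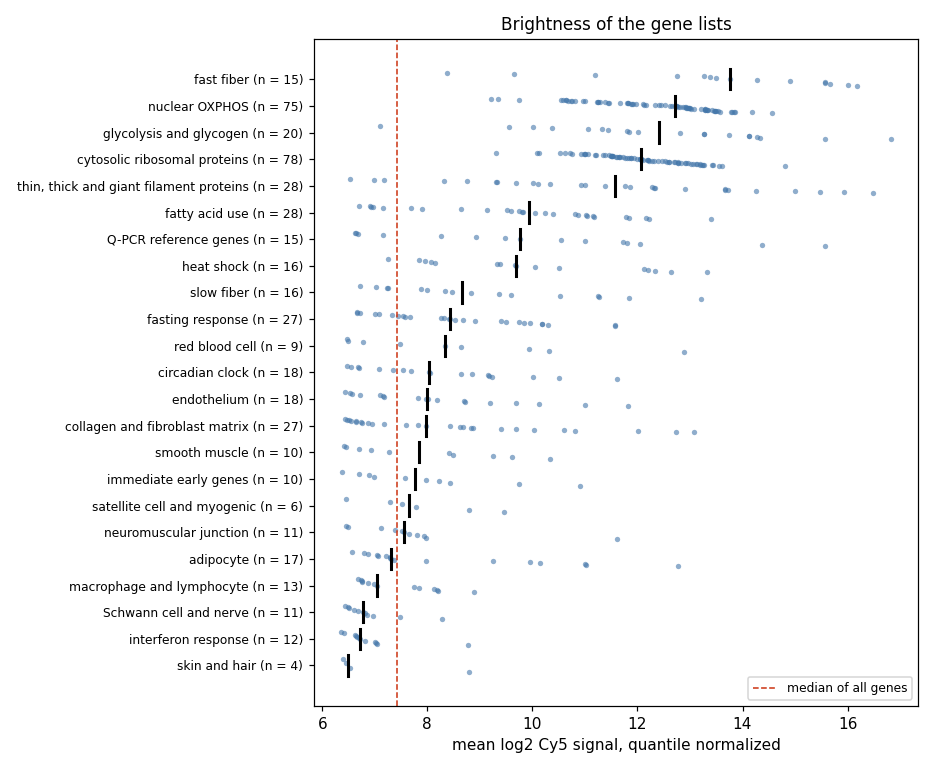
Mean log2 Cy5 signal (quantile normalized, mean of 12 Norm arrays, x axis) of each measured gene in 23 lists (points), with the median of each list (black bar) and of all 8991 genes (dashed line at 7.42). Fast fiber, nuclear OXPHOS and glycolysis genes lie highest, and skin, interferon and nerve genes lowest.

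Genes of the other cells of the muscle were measured at lower brightness. Of 27 measured matrix genes, *Dcn* (decorin) stood at rank 127 and *Sparc* at 184. The endothelial list was represented by 18 of 22 genes, led by the water channel *Aqp1* at rank 336. Of 23 adipocyte genes 17 were measured, with *Car3*, which fast and slow fibers also use, at rank 176, *Fabp4* at 549, *Cfd* at 1528 and *Adipoq* at 4803, where *Adipoq* was well above background on 9 of 12 arrays. Hemoglobin stood at rank 160 (*Hba-a2*), 782 (*Hbb-bt*) and 999 (*Hba-a1*). Among 11 of 18 Schwann cell and nerve genes, *Pmp22* was the brightest (rank 2707). Of 29 macrophage and lymphocyte genes 13 were measured, with the antigen-presenting *H2-Ab1* first at rank 1885 and with *Ptprc* and *Adgre1* below the filter on dim probes. Of 12 lung genes 0 passed that filter, and of 17 skin and hair genes 4 did. Only 10 of 23 immediate early genes passed it, with *Fos*, *Fosb*, *Junb*, *Egr1* and *Atf3* below it. Of the markers that define the labelled tissue, 15 of 15 fast and 10 of 16 slow fiber genes were well above background on 12 of 12 arrays. Of all 8991 genes, 2782 were.

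Between mice, most genes differed little. The median within-slide SD of the log2 ratio was 0.20, with 5% of genes below 0.10 and 5% above 0.39. For 167 probes printed in 8 or more spots, single spots of 1 array varied by a median SD of 0.18. That is close to the 0.20 between mice over all genes, while the within-slide SD of these probes, averaged over their spots, was 0.12. In the 1731 genes with over 1 probe, the 2 brightest probes correlated over the mice at a median of 0.19, slide means removed. The pool in Cy3, the same RNA on every array, varied with a median SD of 0.079 against 0.22 for the mice in Cy5. By a one-sided variance ratio test with the Cy3 variance moderated by limma, 7619 of 8991 genes (84.7%) were more spread in Cy5 than in Cy3 at an adjusted p under 0.05. That test sets separate mice against repeats of 1 pool, so it does not single out genes that vary between animals. The Cy5 channel was also the dimmer of the pair, and the part of its dimness in that difference was not tested. The median spread was 0.18 in genes past rank 6000 and 0.28 in the first 1000, and the offset of the background correction holds down the ratios of dim genes.

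The 6 pairs of mice were not equally far apart. Among the 8826 to 8991 genes compared on each slide, 209 differed by over 1 on the log2 scale between replicates 3 and 9, 206 between replicates 5 and 7 and 158 between replicates 6 and 12. Only 29, 8 and 5 did so between replicates 4 and 11, 2 and 8, and 1 and 10. On slide 5, 176 of the 206 genes were higher in replicate 7 than in replicate 5. Between slides, 183 of 8990 genes (2.04%) differed at an adjusted p under 0.05 by limma's moderated F test, among them 11 of 15 fast fiber genes, 19 of 75 nuclear OXPHOS genes, 11 of 20 glycolysis genes and 2 of 16 slow fiber genes. The ratio of *Myh4* was 4.06 and 3.36 on the 2 arrays of slide 1 and at most 2.29 elsewhere. Without slide 1, the dimmest, 0 genes passed that test by limma and 549 had an unadjusted p under 0.05. The dim Cy5 channel and the animals of slide 1 cannot be told apart.

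**Figure D2:**
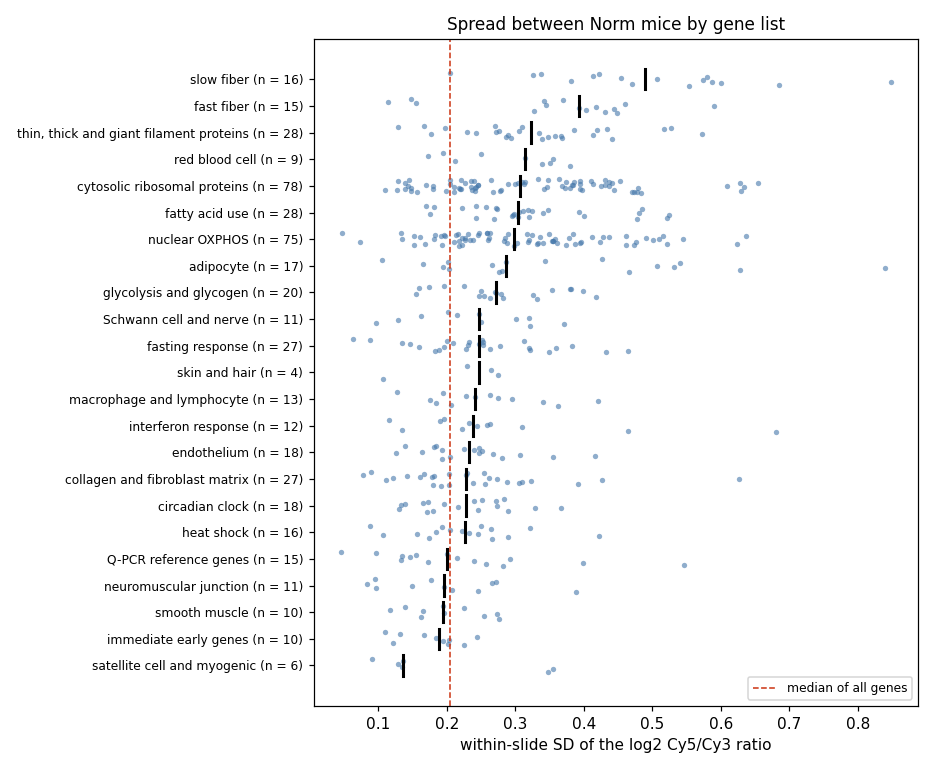
Within-slide SD of the log2 Cy5/Cy3 ratio (x axis) of each measured gene in 23 lists (points), with list medians (black bars) and the median of all genes (dashed line at 0.20). Slow fiber genes lie farthest right with a median of 0.49, followed by fast fiber genes at 0.39.

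Slow fiber genes were the most spread list between mice. All 16 lay above the median of all genes (50% of genes by construction), with a list median of 0.49. Fast fiber genes followed at 0.39 (12 of 15 above), then thin, thick and giant filament genes at 0.32 (24 of 28), red blood cell genes at 0.31 (7 of 9), ribosomal proteins at 0.31 (62 of 78), fatty acid use at 0.30 (25 of 28), nuclear OXPHOS at 0.30 (61 of 75), adipocyte genes at 0.29 (12 of 17) and glycolysis at 0.27 (16 of 20). Without slide 5 the median was 0.40 for slow fiber genes (14 of 16 above that of all genes), 0.29 for fast fiber genes (9 of 15) and 0.24 for red blood cell genes, and the SD of *Tnnt3* was 0.13 in place of 0.40 and that of *Actn3* 0.17 in place of 0.46. Clock genes, endothelial genes, matrix genes and heat shock genes (each 0.23) were nearer to all genes. Junction genes of nerve and muscle (0.20), smooth muscle genes (0.19), the immediate early genes that passed (0.19) and satellite cell genes (0.14) were at or below it. For the 2000 genes after the first 1000, where the median slow fiber gene lies, the median spread of all genes was 0.23. In the first 1000 it was 0.28. Those held 77 of 78 ribosomal protein, 72 of 75 nuclear OXPHOS, 18 of 20 glycolysis and 13 of 15 fast fiber genes. Against 0.28, the medians of ribosomal protein and nuclear OXPHOS genes were little higher and that of glycolysis genes was slightly lower.

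Of the 20 genes with the largest within-slide SD, 7 owed it mostly to slide 1. *Zcchc18* had a log2 ratio of 11.53 and *AU023762* of 7.70 on replicate 4 alone, against medians of -0.03 and 0.07. Both were well above background on 1 of 12 arrays. They were also among the 50 genes lit on a single array when patch spots were kept. Whether their spread comes from the slide surface or the mouse was not tested. *Park7*, a redox chaperone, was at 4.09 on replicate 4 (median 0.20), and *Rpl34-ps2* (3.74), *Sbf2* (2.82), *Fkbp3* (2.29) and *Wdr12* (1.86) were also highest there. Replicate 4 was the dimmest array (mean Cy5 signal 29.1, 9.42% of spots well above background), and the part of its dimness in these values was not tested. Over the mice, the 2 brightest probes correlated at 0.08 for *Rpl34-ps2*, 0.64 for *Park7* and 0.52 for *Wdr12*. Small nuclear and nucleolar RNA genes *Rnu3b1*, *Rnu1b6* and *Rnu2-10* were highest on replicate 3, at 2.43, 2.00 and 2.08. *Pigr*, *Gcm1*, *Ifi27l2a* and *Gm15421* also peaked on replicate 3. *Nmrk2*, a kinase for an NAD precursor in muscle, was highest on replicate 6 at 1.44 and lowest on its slide partner, replicate 12, at -1.34. *Ppp1r3c*, which targets a phosphatase to glycogen, was 1.93 on replicate 8, against 0.24 at most on the other arrays. *Mdh1*, cytosolic malate dehydrogenase, was lowest on replicate 5, at -1.01 against 0.76 or more elsewhere. The remaining genes of the 20 were *Myh7*, *Tnnt1* and *Cfd*, taken up below. The 5 least spread genes, *Ddx20*, *Pik3r4*, *Lmnb2*, *Mpp1* and *Kdsr*, had SDs between 0.03 and 0.04 and low brightness, with mean log2 Cy5 signals from 6.41 to 7.41.

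*Myh7*, the heavy chain of slow fibers, ranged from -2.90 in replicate 5 over a median of -0.26 to 0.57 in replicate 12, with a within-slide SD of 0.85. Replicate 5 stood apart: its slide partner, replicate 7, was at -0.39 and the next lowest mouse, replicate 10, at -1.28. *Tnnt1*, the troponin that ties slow thin filaments to tropomyosin, ran from -2.04 in replicate 5 over a median of 0.22 to 1.11 in replicate 12. *Myl2*, the slow regulatory light chain, ran from -2.34 in replicate 5 over -0.44 to 0.27 in replicate 12. *Tpm3*, the slow tropomyosin, ran from -1.86 over -0.26 to 1.03, and *Tnnc1*, troponin C of slow fibers and heart, from -2.17 over -0.75 to 0.48, again between replicates 5 and 12. These slow fiber genes were thus lowest in replicate 5 and highest in replicate 12. *Actn3*, which only fast fibers use, went the other way on slide 5, with 0.87 in replicate 5 and -0.64 in replicate 7.

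**Figure D3:**
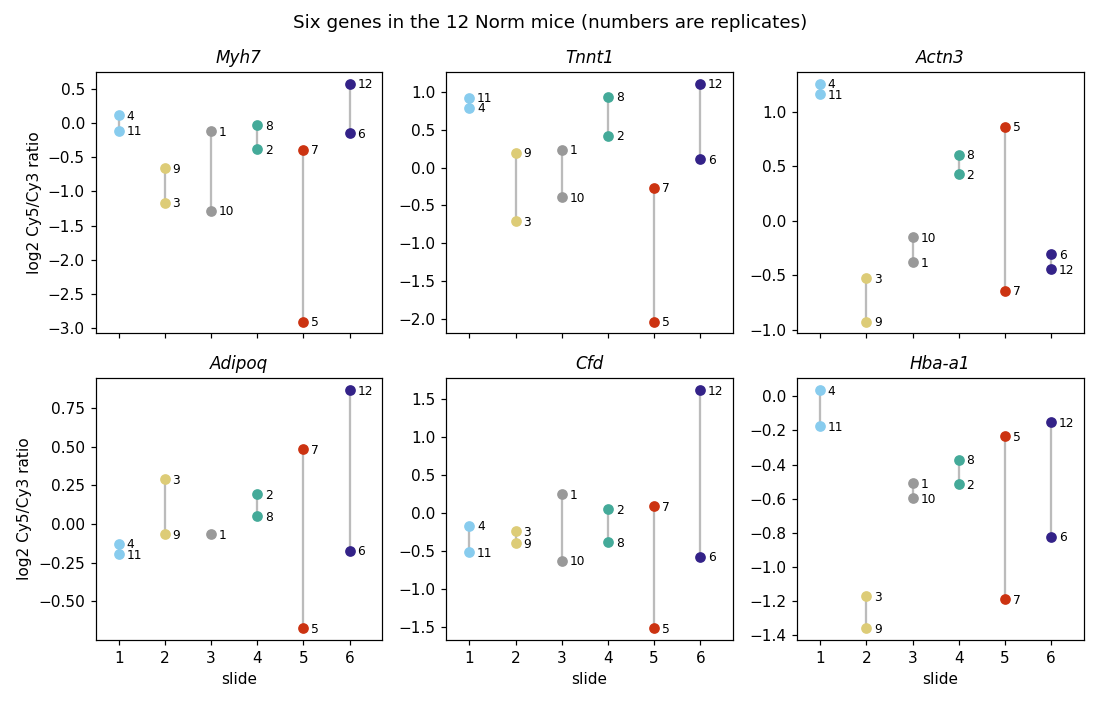
Log2 Cy5/Cy3 ratio (y axis, own scale in each panel) of 6 genes in the 12 Norm mice by slide (x axis), with numbers giving replicates and lines joining the 2 mice of a slide. Replicate 5 is lowest for *Myh7*, *Tnnt1*, *Adipoq* and *Cfd*, and *Adipoq* has no value in replicate 10.

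With slide means removed, slow fiber genes moved together. Over 120 pairs of slow fiber genes the mean correlation was 0.57, and 95.8% of pairs were positive, where pairs of all genes averaged 0.01. Without slide 5 the mean was 0.25. When every gene was fitted on *Myh7* with the slide as fixed terms, 0 of 8990 genes passed after adjustment by limma's moderated test, and 647 had an unadjusted p under 0.05. The genes nearest to passing were slow filament genes. The *Tnnt1* ratio changed by 0.75 (SE 0.11) per unit of *Myh7* (adjusted p = 0.0749 by limma), that of *Myl2* by 0.66 (SE 0.10) and that of *Tpm3* by 0.63 (SE 0.10), both with an adjusted p of 0.0805 by limma. With the deposited log2 values, or with only probes well above background on all 12 arrays, 3 genes passed, and without slide 2, 7 did. *Mdh1* (0.78, SE 0.16) and *BC048679* (0.61, SE 0.12) followed, but without slide 5 their slopes were 0.05 and 0.16. Without that slide the slope of *Myl2* was 0.38 (SE 0.19), that of *Tnnt1* 0.89 (SE 0.22) and that of *Tpm3* 0.79 (SE 0.20). With all slides, the strongest negative slopes after *Actn3* were those of *3000002C10Rik* (-0.56), *Cited2* (-0.50), *Gm13315* (-0.39) and the fast-fiber Z-disc gene *Myoz1* (-0.38). *Tpm3* needs a further limit: its 2 brightest probes did not vary alike (correlation -0.53), and with the mean of its probes the slope was 0.34.

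Of the 15 other slow fiber genes, all 15 had a positive slope on *Myh7*, and 10 had an unadjusted p under 0.05, where 4.33% of all genes had a positive slope by that rule. Besides the filament genes above they were the light chain *Myl3* (0.55, SE 0.12), *Tnni1* (0.41, SE 0.11), the slow calcium pump *Atp2a2* (0.50, SE 0.12), *Myoz2* (0.39, SE 0.10), *Myh7b* (0.33, SE 0.10) and the stretch-responsive *Csrp3* (0.32, SE 0.14). *Sln*, *Mybpc1*, *Casq2*, *Fhl1* and *Ankrd2* had slopes from 0.15 to 0.25. Without slide 5 the count was 5 of 15 (1.48% of all genes) with 11 of 15 slopes positive. Without any other slide it was between 9 and 11 (3.62% to 6.77% of all genes). With the scanner's processed signals the median slope of the list was 0.55 against 0.00 over all genes, and with the deposited values 0.46 against 0.03. The median slope was 0.39 on this list and 0.00 over all genes.

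Of 15 fast fiber genes, 13 had a negative slope on *Myh7*, as 13 did with the scanner's processed signals, 8 with the deposited values, 3 from Cy5 without the ratio and 0 with each array centred on its median. Median centring moved all genes, with a median slope of 0.22 over all genes and 56.1% of them rising with *Myh7*, and Cy5 without the ratio gave 0.09. Against these, the median fast fiber slope was 0.17 and 0.04, and with the deposited values it was -0.01 against 0.03. With loess, 7 had a negative slope at an unadjusted p under 0.05, where 2.87% of all genes did. They were *Actn3* (-0.50, SE 0.10), *Tnnt3* (-0.39, SE 0.11), *Mybpc2* (-0.34, SE 0.10), *Myh4* (-0.34, SE 0.13), *Tnni2* (-0.32, SE 0.14), *Pvalb* (-0.30, SE 0.10) and the muscle enolase *Eno3* (-0.29, SE 0.13). *Myh1* had a slope of 0.00 (SE 0.09), and *Myh2*, the heavy chain of fast oxidative fibers, went with *Myh7* (0.40, SE 0.17, unadjusted p = 0.0335 by limma, adjusted p = 0.660). At an unadjusted p under 0.05, 1 of 15 fast fiber genes fell with *Myh7* with the scanner's processed signals (1.31% of all genes). With the deposited values (1.22%), from Cy5 without the ratio (0.1%), with median centring (0%) and without slide terms (2.8%), 0 did. Without slide 5 the fast count was 2 of 15 (2.77% of all genes), and the slope of *Actn3* was -0.21. With median centring that slope was 0.05. Of 75 nuclear OXPHOS genes 9, and of 28 genes of fatty acid use 8, had a positive slope on *Myh7* at an unadjusted p under 0.05, where 4.33% of all genes did. Without slide 5 both counts were 0 (1.48% of all genes). The counts were 1 and 6 with the scanner's processed signals (3.07% of all genes) and 41 and 15 with the deposited values (8.6%). Of 20 glycolysis genes all 20 had a negative slope with loess, 3 of them at an unadjusted p under 0.05, and 19 had with the scanner's processed signals. With median centring their median slope was 0.25 against 0.22 over all genes, from Cy5 without the ratio 0.13 against 0.09 and with the deposited values 0.05 against 0.03.

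*Adipoq* ranged from -0.67 in replicate 5 over a median of -0.07 to 0.87 in replicate 12, and replicate 10 had no value because its spot lay in a bright patch. Fits on *Adipoq* therefore used 11 arrays, of which replicate 1 had lost its slide partner. With slide as fixed terms, replicate 1 adds nothing to these slopes, so leaving out slide 3 is no check on them. Replicate 5 minus replicate 7 was -1.16 and replicate 6 minus replicate 12 was -1.04. On slides 1, 2 and 4 the differences were 0.07, 0.36 and 0.14. The slopes thus lean on slides 5 and 6, and leaving out either keeps the other. *Cfd*, the fat cell protease adipsin, ran from -1.51 in replicate 5 over -0.31 to 1.62 in replicate 12. *Cfd* was the only one of 8990 genes to pass after adjustment in the fit on *Adipoq* (0.0111%), with a slope of 1.66 (SE 0.20, adjusted p = 0.0194 by limma). That call was lost with slide 1, 4, 5 or 6 left out (adjusted p from 0.0588 to 0.143 by limma), with array brightness as a covariate (0.705), under the scanner's processed signals (1.00), from Cy5 without the ratio (0.110) and without the filter on dim probes (0.0526). Its slope was positive under every alternative run. *Cidec*, which coats fat droplets, had a slope of 0.97 (SE 0.16), *Scd1*, the desaturase of fat synthesis, 0.99 (SE 0.20), and *Dgat2*, which makes triglyceride, 1.17 (SE 0.25). *Lpl*, which frees fatty acids from lipoproteins (1.00), and *Ccdc80* (0.90) were also among the 5 strongest. *Pip5k1a* (-0.90), *Cystm1* (-0.85), *Pgk1* (-0.84) and *Slc37a4* (-0.89) were among the strongest negative slopes. The 2 brightest probes correlated over the mice at -0.93 for *Cystm1* and -0.79 for *Pip5k1a*, against 0.83 for *Lpl*. The slopes of *Cystm1* and *Pip5k1a* thus hold for 1 probe only.

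Of 16 other adipocyte genes, 9 had a positive slope on *Adipoq* at an unadjusted p under 0.05, where 5.85% of all genes did. *Fabp4* (0.52), *Cidea* (0.48), *Retn* (0.46), *Pck1* (0.53) and *Acaca* (0.36) were the others. *Car3* had a negative slope (-0.67, SE 0.26, unadjusted p = 0.0224 by limma), and *Plin4* (-0.35), *Pparg* (0.14), *Pnpla2* (-0.17) and *Acly* (-0.04) were past no threshold. *Car3*, *Plin4* and *Pnpla2* are also made by muscle fibers, which limits them as markers of fat cells. That limit is not theirs alone, as *Fabp4*, which rose with *Adipoq*, is also in the endothelial list. All of them stay in the counts. With array brightness as a covariate the count was 3 of 16 (3.11% of all genes), and without slide 6 it was 6 (7.25%).

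Slow fiber and fat genes were high or low on the same arrays. Of 16 slow fiber genes, all 16 had a positive slope on *Adipoq*, 12 of them at an unadjusted p under 0.05, where 5.85% of all genes did, and without slide 5 the count was 4 (4.1% of all genes). Of 15 fast fiber genes 9 had a negative slope by that rule, where 6.02% of all genes did. With array brightness as a covariate 2 had (1.59% of all genes), and without slide 5, 3 had (7.13%). With the scanner's processed signals 1 had (0.879%), with the deposited values 1 (4.31%), and from Cy5 without the ratio (2.34%) or with median centring (0.0667%) 0 had. Of the 15 slopes 11 were negative with loess, 13 with the scanner's processed signals, 10 with the deposited values and 3 with median centring, where the median slope was 0.11 against 0.36 over all genes. *Myh7* itself had a slope of 1.34 on *Adipoq* (SE 0.32, adjusted p = 0.162 by limma). The mean of the slow fiber list and that of the adipocyte list correlated at 0.89 (Spearman's rho 0.90) over the 6 slide pairs, and at 0.90 without slide 5. Slow and fast fiber means correlated at -0.90 (rho -0.84), and at -0.74 without slide 5. These correlations describe 6 differences between pairs of mice whose 2 values share a slide, and they carry no test. They were computed with loess only. On slides 5 and 6 the slow fiber means of the 2 mice lay farthest apart. There the mouse with more slow fiber and fat signal was on the brighter array. Mean Cy5 signal was 284 in replicate 7 against 191 in replicate 5, and 902 in replicate 12 against 614 in replicate 6. On slides 1, 3 and 4 the brighter array also had the higher slow fiber mean (39.0 against 29.1, 468 against 337 and 102 against 94.8). Slide 2, with 418 against 409, went the other way. The adipocyte mean was higher on the brighter array on slides 1 and 3 and on the dimmer one on slides 2 and 4. With brightness removed, the correlation of slow fiber with adipocyte means was 0.62 and that with fast fiber means -0.65. With brightness as a covariate the counts of slow fiber genes were 7 of 15 on *Myh7* (2.69% of all genes) and 4 of 16 on *Adipoq* (3.11%).

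**Figure D4:**
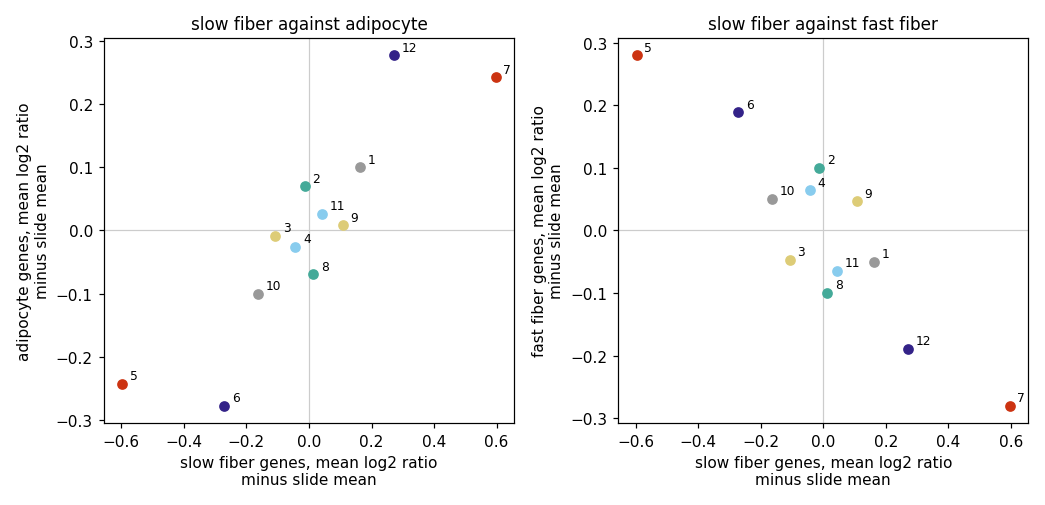
Mean log2 ratio of the slow fiber genes (x axis) against that of the adipocyte genes (left) and the fast fiber genes (right), slide means removed, 1 point per mouse with its replicate number and 1 colour per slide. The 2 mice of a slide lie opposite each other by construction, and replicates 5 and 7 lie farthest out along the slow fiber axis.

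Of 11 Schwann cell and nerve genes 4 had a positive slope on *Adipoq* at an unadjusted p under 0.05, where 5.85% of all genes did. The count was also 4 without slide 5 (4.1% of all genes). They were *Prx*, the periaxin of myelin (0.77, SE 0.16), *S100b* (0.60, SE 0.16), *Mal* (0.51, SE 0.15) and *Ncmap* (0.57, SE 0.19). *Mbp*, of the myelin sheath, had a slope of 0.05 (SE 0.19). The list means of nerve and adipocyte genes correlated at 0.90 (rho 0.71), and at 0.84 without slide 5. None of the 11 was well above background on all arrays.

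*Hba-a1*, the alpha chain of hemoglobin and a marker of blood left in the tissue, ranged from -1.36 in replicate 9 over -0.51 to 0.03 in replicate 4. In the fit on *Hba-a1*, 0 genes passed after adjustment by limma and 625 had an unadjusted p under 0.05. *Hba-a2* (0.98, SE 0.22), *Hbb-bt* (0.83, SE 0.23) and *Hbb-b2* (0.65, SE 0.29) were the 3 of 8 other red blood cell genes with an unadjusted p under 0.05. By that rule 3.84% of all genes had a positive slope, and without slide 5 the count was 0 (4.86% of all genes). *Alas2*, the heme synthesis enzyme of red cells, had 0.39 (SE 0.22). *Hba-a1* and *Hba-a2* encode the same protein, and their probes may share signal. The strongest slopes otherwise were positive for *Eef1a2* (1.14), *Kif1c* (0.95), *Prkab2* (0.89) and *Rnf123* (0.90) and negative for *Eloc* (-1.11), *Nf1* (-1.38), *Smim15* (-1.02), *Pla2g12a* (-1.17) and *Myh2* (-1.44). All 16 slow fiber genes had a negative slope on *Hba-a1*, 3 of them with an unadjusted p under 0.05 (3.11% of all genes). All 16 were also negative with the scanner's processed signals, when 0 had an unadjusted p under 0.05 (2.49% of all genes). Without slide 6 all 16 were negative and 14 had an unadjusted p under 0.05 (4.44% of all genes). Without slide 5 only 4 of 16 were negative, with the deposited values 8, from Cy5 without the ratio 4 and with median centring 0, where the median slope was 0.73 against 0.51 over all genes. Replicate 5, lowest for *Myh7*, was at -0.23 and its partner replicate 7 at -1.19.

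*Dbp*, a clock output gene, ranged from -0.54 in replicate 5 over -0.23 to 0.14 in replicate 4, with an SD of 0.18. Its 2 probes, 0.10 apart in brightness, did not vary alike over the mice (correlation -0.18), which limits the fit on it. *Pdk4*, the brake on pyruvate use that rises in fasting, ranged from -0.97 in replicate 7 over -0.26 to 0.28 in replicate 4. *Col1a1*, of interstitial collagen, ranged from -1.17 in replicate 3 over -0.74 to -0.04 in replicate 11. In their fits 0 genes passed after adjustment by limma, and 193, 363 and 247 genes had an unadjusted p under 0.05. Of 17 other clock genes 0 followed *Dbp* at that threshold, where 1.45% of all genes had a positive and 0.701% a negative slope, and of 26 other fasting genes 4 had a positive slope on *Pdk4* (1.86% of all genes) and 0 a negative one (2.18%). Of 26 other matrix genes 0 followed *Col1a1* in either direction (1.27% of all genes had a negative slope), while 7 of 16 slow fiber genes had a positive slope on it (1.48% of all genes). That count was 3 without slide 5 (1.54% of all genes) and 3 with array brightness as a covariate (3.62%). With that covariate the median slow fiber slope was -0.26 in place of 0.53. The strongest positive slopes on *Col1a1* were those of the stretch-responsive *Csrp3* (0.95, SE 0.21) and *Ankrd2* (1.15, SE 0.26), both with an adjusted p of 1.00 by limma, followed by *Atp1b1*, *Sod3* and *Slc30a5*. *Ampd1*, *Park7*, *Stxbp4*, *Akr1a1* and *Pla2g7* had the strongest negative ones. On *Dbp* the strongest slopes were positive for *Gm20472*, *Mrps24*, *Stard3*, *Ndufa6* and *Ivns1abp* (1.33 to 2.96) and negative for *Lrp6*, *Ankhd1*, *Fbxw11*, *Wwc2* and *Nfatc1* (-1.69 to -1.32). On *Pdk4* they were positive for *Arhgap20*, *Rab7*, *Chd7*, *Samd4* and *Kmt2e* (0.62 to 0.71) and negative for *Cox16*, *Rps27a*, *Zbtb8os*, *Rpl31-ps10* and *Ndufb4* (-1.07 to -0.72). The mean pairwise correlation was 0.00 over 153 pairs of clock genes and 0.00 over 153 pairs of endothelial genes. Interferon response genes were few and dim, 12 of 26, and had a mean pairwise correlation of 0.34 (0.35 without slide 5). *Ifi27l2a*, the brightest of them, was highest in replicate 3 at 1.60 and lowest in replicate 5 at -1.32. Glycolysis genes averaged 0.31 over 190 pairs (0.13 without slide 5), macrophage and lymphocyte genes 0.29 over 78 pairs and ribosomal proteins 0.06 over 3003 pairs.

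**Figure D5:**
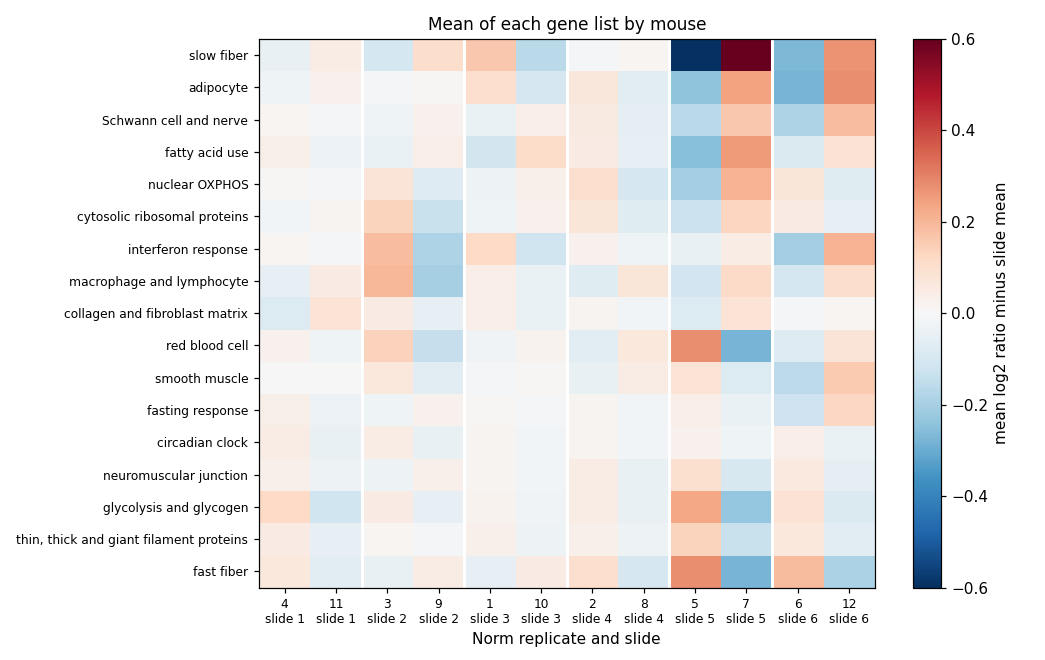
Mean log2 ratio minus the slide mean (colour, from -0.6 blue to 0.6 red) of 17 gene lists (rows) in the 12 Norm mice (columns, ordered by slide). The slow fiber row reaches -0.60 in replicate 5 and 0.60 in replicate 7, and the 2 mice of a slide mirror each other by construction.

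Over 8731 genes with a value on every array, the first 2 principal components of the slide-centred ratios held 27.8% and 22.3% of the variance. The first set replicates 7, 3 and 12 against 5, 9 and 6. At its upper end stood *Fkbp3*, *Rnu3b1*, *Zcchc18*, *Rpl34-ps2*, *Cfd*, *Chchd1*, *Ndufs4*, *Gm15421*, *Ifi27l2a* and *Rps27*, and its lower end included *Cyp26b1*, *Rpl6*, *Tnni2*, *Eno3*, *Ndufs7*, *Nmrk2*, *Gm8225*, *Trappc10* and *Pstpip2*. The second set replicates 6 and 3 against 12 and 9. Its lower end, toward replicate 12, held *Cfd*, *Tnnc1*, *Tnnt1*, *Rarres2*, *Trf*, *Scd1*, *Cyp2e1*, *Pck1*, *Cebpd* and *Tspan7*, of which *Cfd*, *Rarres2*, *Scd1* and *Pck1* are used by fat cells. Its upper end held *Nmrk2*, *Pigr*, *Gcm1*, *Gfra4*, *Serpina11*, *Gm14308*, *Zfp930*, *Rpl31*, *Rpl22* and *B020031M17Rik*. Mouse scores on the components correlated with array brightness, slide means removed, at 0.58 and -0.39.

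The genes that this field uses as references were not equally steady at rest. *Gusb* (SD 0.05), *Ywhaz* (0.10) and *Sdha* (0.13) varied least of 15 measured, and *Pgk1* (0.40) and *B2m* (0.29) were among those that varied more. *B2m* ran from -0.55 in replicate 4 over -0.26 to 0.65 in replicate 3, *Canx* from -0.32 over 0.05 to 0.40 (SD 0.15) and *Rps15* from -0.61 over -0.26 to 0.16 (SD 0.24), these 3 being references in the study. *Gusb* and *Ywhaz* were dim, well above background on 8 and 9 of 12 arrays, where the offset holds ratios near 0, whereas *Sdha* was well above background on all 12. *Depp1*, a FOXO target, ranged from -1.39 in replicate 3 over -0.98 to -0.50 in replicate 12 (SD 0.31), below the pool in 12 of 12 mice. *Ttn*, the giant filament titin, ranged from -0.58 in replicate 12 over 0.75 to 1.42 in replicate 4 (SD 0.41).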

How the data were processed

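For each array the authors deposited spot intensity (mean signal and local background of both channels) from Agilent Feature Extraction 10.7.3.1, without normalization between arrays, with quality flags, which are scores of 0 or 1. They also deposited normalized log2 values in a series table, used here as an alternative. Only the 12 Norm arrays were analysed, and slides were read from the scanner output. Control and flagged spots (3680 readings) were left out, as were 1534 spots with a local Cy5 background over 2 times the array median, a step chosen after the data were seen. Signals were corrected with normexp (offset 50) and log2 Cy5/Cy3 ratios normalized by loess within each array (limma 3.58.1, R 4.3.3; figures by matplotlib 3.10.9). Gene names came from RefSeq (GRCm38.p6) for 31381 of 55681 probes, through the accession for 27235, the symbol for 3581 and a synonym for 565. Probes with a mean Cy5 signal over 2 times background and at most 2 arrays missing were kept. The probe brightest over both channels stood for its gene.

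Ratios were fitted on 6 index genes with slide as fixed terms, and slides compared by a moderated F test (limma, Benjamini-Hochberg). Replicates are separate mice. The number of arrays limits the precision. Simulated arrays with 200 changed genes were used to test the scripts. The members and the 24 gene lists were chosen with earlier results of these data known. Named are the 20 brightest, 20 most and 5 least spread genes, the 5 smallest p-values per index gene and direction, extreme list members, the 10 highest and lowest loadings of 2 components, *B2m*, *Canx*, *Rps15*, *Depp1* and *Ttn*. Other list members were named after their values were seen. Some genes that this rule names are not reported here.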

Additional observations from a re-analysis of the deposited data

How the results depend on the processing

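Median centring in place of loess moved the slopes of all genes together (a median of 0.22 on *Myh7* over all genes, against 0.00). With it the median within-slide SD was 0.363, 8014 genes differed between slides, and 3777, 3919, 5248, 5479, 3327 and 4163 genes followed *Myh7*, *Adipoq*, *Hba-a1*, *Dbp*, *Pdk4* and *Col1a1*, while the slope of *Actn3* on *Myh7* turned to 0.0523. The scanner's processed signals gave an SD of 0.306, 859 genes between slides, 0 on *Adipoq* and 724 on *Col1a1*. The Cy5 channel alone gave 0.244, 6917, 3 on *Myh7* and 0 on *Adipoq*, and the deposited log2 values 0.233, 5100 and 3 on *Myh7*. With only probes well above background on 12 arrays the SD was 0.240, 3 genes followed *Myh7* and 2717 were more spread in Cy5 than in Cy3, fewer genes being tested. Without a filter on dim probes the SD was 0.151 and 0 genes followed *Adipoq*. Without slide terms 11, 3 and 1005 genes followed *Myh7*, *Adipoq* and *Hba-a1*, and with array brightness as a covariate 0 followed *Adipoq*. With patch spots kept 2 did. Leaving out each slide in turn gave SDs from 0.193 to 0.211, from 0 to 296 genes between slides (0 without slide 1), from 0 to 7 on *Myh7* (7 without slide 2), from 0 to 1 on *Adipoq* and from 0 to 2 on *Hba-a1*. Apart from what a setting's own construction gives, the cause was not tested. The patch step and the counts of list members under left-out slides and brightness were added after the data were seen. Fits on *Adipoq* and *Col1a1* could not be run with the filter for 12 arrays, which removes both genes. No paired analysis was possible because 1 group was analysed. Dim arrays of slides 1 and 4 limit what can be seen for dim genes.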
